A study of Mus musculus with 18 samples.

Results

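Retinas of Rpe65 knockout mice aged 4 months were compared with retinas of the same genotype aged 2 months, 3 against 3 arrays, which are 6 of the 18 arrays of the series. The 6 arrays were taken by the strain and age that the labels give: RPE65-/- at 2 months (retinas 1, 2 and 3) and RPE65-/- at 4 months (retinas 25, 31 and 33). C57BL/6 retinas of 2 and 4 months, again 3 and 3, gave the change over the same ages in controls. Knockout and C57BL/6 retinas of 6 months, 3 and 3, also entered the fit of all 18 arrays that estimates the spread. Total RNA of each retina was hybridised to an Affymetrix expression array. The series text speaks of biological replicates, but the labels name neither animal nor litter, nor the genetic background of the knockout, so that p-values measure the spread between these samples. In a whole retina, fewer cells of a type and less RNA per cell cannot be told apart.

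Rpe65 is the isomerase with which the pigment epithelium regenerates the 11-cis chromophore of the visual pigments. Without it rods carry almost no light-sensitive pigment, and cones, whose opsins need the chromophore to reach their outer segments, are lost early. Cones are of interest here because the short-wavelength opsin Opn1sw and the medium-wavelength opsin Opn1mw are made by overlapping sets of them.

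Values are the deposited ratios, in which a gene's level on an array is divided by that gene's median over all 18 arrays, so that 1 is the median and ratios of different genes cannot be set against each other. For genes called dim, whose median was low, the divisor was 1 fixed number and the ratio is noisy: arrays of a group had a median SD of 1.16 (log2) in dim genes and 0.22 in the rest. Differences are log2 of the 4 month ratios minus log2 of the 2 month ratios, each with its standard error from a fit by limma over all arrays, with p-values adjusted by Benjamini-Hochberg over 18193 genes and a threshold of 0.05. All genes together had a median difference of 0.08, or -0.02 after each array was centred on its median.

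The arrays' median signals, before any scaling, ran from 10.2 to 13.9 in the 2 month and from 11.7 to 11.9 in the 4 month knockouts, and from 6.80 to 14.3 in the controls of these ages. In the 6 month arrays of both genotypes they ran from 32.8 to 45.8. Y-linked genes marked all 6 knockout retinas of 2 and 4 months as male, and among controls retinas 9 and 10 of 2 months and 24 of 4 months as female. At 6 months they marked knockout retina 6 and control retinas 1, 2 and 3 as female. All 16 measured rod genes and all 15 cone genes were above the dim range, whereas 1 of 13 skeletal muscle genes, 2 of 12 corneal genes and 1 of 9 myelin genes were. Pearson's r between arrays, over the 9096 brighter genes (which are not independent replicates), was 0.915 to 0.959 among 2 month and 0.967 to 0.981 among 4 month knockouts. The mean log2 level of 22 lens genes was -4.05, 1.22 and 5.03 in the 2 month retinas and -1.58, -2.69 and -2.15 in the 4 month retinas. Lens RNA was thus highest in retina 3, intermediate in retina 2 and lowest in retina 1, with the 4 month retinas between. The mean level of the visual cycle and pigment epithelium list was -1.74, -1.37 and -1.44 at 2 months and 0.08, 0.10 and 0.24 at 4 months.

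Rpe65 itself, a dim probe set, had ratios of 0.0433, 0.111 and 0.0542 at 2 months and 0.780, 0.394 and 0.815 at 4 months. All 4 month arrays lay above all 2 month arrays. The difference was 3.30 ± 1.26 with an adjusted p of 0.422, and 0.43 on log2(signal + 16), a scale that damps low signals. Control ratios were 0.609 to 33.9 at 2 months and 2.49 to 46.7 at 4 months, so knockout ratios of 0.780 and 0.815 lay above the lowest control ratio. Where the probes lie relative to the deleted part of the gene was not analysed here.

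In the knockout, 8 of 18193 genes passed the threshold between 2 and 4 months (0.044%), 5 of them higher (0.0275%) and 3 lower (0.0165%) at 4 months. Securin Pttg1, the vascular growth factor receptor Flt4 and the cone opsin Opn1sw fell, while Glb1l3, Fbxo44, Cyp27a1 and the dim genes Vmn1r14 and Sh3tc2 rose. An unadjusted p under 0.05 was reached by 1770 genes (9.73%). In controls, 0 genes passed and 894 (4.91%) had an unadjusted p under 0.05 in the same limma fit. The count depended on the arrays: leaving out retina 1, 2 or 33 left 2 genes, leaving out retina 3, 25 or 31 left 3, and Pttg1 and Flt4 were called in each of these 6 fits. In a fit of the 6 arrays alone 1 gene passed and it was none of the 8 (0 shared), with adjusted p-values of 0.105 for Pttg1 and 0.0854 for Flt4. Centring the arrays gave 1 higher and 4 lower, quantile normalization 0 and 2, and log2(signal + 16) 31 and 6.

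Pttg1, which restrains the separation of sister chromatids until anaphase, had the largest fall among genes past the threshold. Its ratios were 0.454, 0.409 and 0.409 at 2 months and 0.0146, 0.0186 and 0.0507 at 4 months. The 4 month retinas were low in all 3 arrays and the groups were far apart. The difference was -4.14 ± 0.36 (adjusted p = 0.000389), and -2.93 on log2(signal + 16). At 6 months the knockout ratios were 1.06, 0.680 and 1.21, back above those of 2 months, but those arrays had median signals of 36.1 to 45.8, so age and that difference between arrays cannot be told apart there. The other probe sets of the gene gave -2.76 and -0.75, and without probe sets open to cross-hybridisation the gene did not pass (-0.75, adjusted p = 0.553, in a range of 2.78e-07 to 0.553 over the alternatives). Among the other 18 measured cell cycle genes, which include the cyclins and replication factors, none passed, and the list's median difference was 0.15.

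Flt4, the receptor for the lymphatic growth factors VEGF-C and VEGF-D, had ratios of 1.14, 1.06 and 0.822 at 2 months and 0.0776, 0.117 and 0.178 at 4 months. Each 4 month array was far below each 2 month array. It fell by 3.09 ± 0.34 on the log2 scale (adjusted p = 0.00398). On log2(signal + 16), which damps low signals, the difference was -0.64. By signal Flt4 was among the dimmest 40% of genes, so the fit without those could not test it. At 6 months, in the arrays of higher median signal, the ratios were 0.731, 0.863 and 0.981, with the same limit as for Pttg1. A further probe set, a dim one, gave -2.28. Of 16 vessel and pericyte genes, which mark endothelium and mural cells, 0 passed and 2 lay higher at 4 months without overlap (as did 13.9% of all genes), the dim genes Cdh5 (1.24) and Tie1 (1.04).

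Opn1sw, the short-wavelength opsin, had ratios of 0.226, 0.317 and 0.235 at 2 months and 0.0885, 0.0763 and 0.0545 at 4 months. All 4 month retinas were lower. The 6 month ratios of 0.0476, 0.0677 and 0.0448 overlapped those of 4 months, but age and the higher median signal of those arrays cannot be told apart. The fall of 1.84 ± 0.25 had an adjusted p of 0.0279. Control ratios were 2.82 to 3.68 at 2 months and 1.68 to 2.64 at 4 months, a difference of -0.52 ± 0.25, and the knockout change differed from the control change by -1.32 ± 0.35 (adjusted p = 0.613). A dimmer probe set of Opn1sw gave -0.22. The call was lost without retina 1, 2, 3, 31 or 33, with adjusted p-values of 0.0639 to 0.123, though the difference kept its sign.

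**Figure D1:**
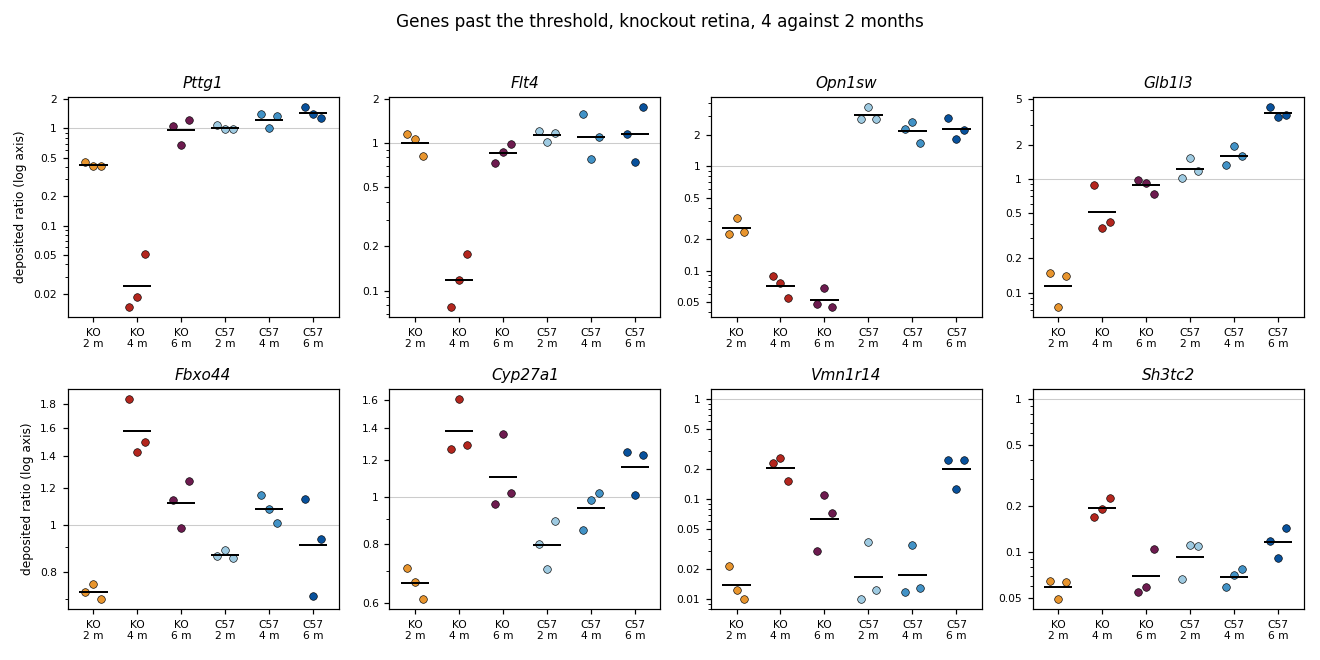
Deposited ratio (log axis) in each array of the 8 genes past the threshold, for knockout (KO) and C57BL/6 (C57) retinas at 2, 4 and 6 months (m); points are arrays, bars are geometric means of 3. Pttg1, Flt4 and Opn1sw are lower at 4 than at 2 months in the knockout, and the other 5 are higher.

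Among the genes that rose, Glb1l3, a gene like beta-galactosidase, had ratios of 0.148, 0.0746 and 0.139 at 2 months and 0.875, 0.371 and 0.419 at 4 months. The groups did not overlap. The 6 month ratios, from the arrays of higher median signal, were 0.979, 0.927 and 0.743, and age and signal cannot be told apart there. The rise was 2.16 ± 0.32 (adjusted p = 0.0368), with a control change of 0.39 ± 0.32. With the pigment epithelium level as a covariate, which was higher in every 4 month than in every 2 month knockout array, the difference was 2.32 and the adjusted p 0.115 (0.00578 to 0.334 over the alternatives).

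Fbxo44, a substrate receptor of a ubiquitin ligase, had ratios of 0.727, 0.753 and 0.701 at 2 months and 1.84, 1.42 and 1.5 at 4 months, a rise of 1.12 ± 0.16 (adjusted p = 0.0315). Cyp27a1, the sterol 27-hydroxylase of mitochondria, went from 0.711, 0.663 and 0.612 to 1.27, 1.61 and 1.29, a rise of 1.06 ± 0.16 (adjusted p = 0.0368). In both genes every 4 month array exceeded every 2 month array. The control changes were 0.32 and 0.26. A dim probe set of Cyp27a1 gave -0.44.

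The dim genes were Vmn1r14, a vomeronasal receptor, and Sh3tc2, known from peripheral myelination. Vmn1r14 had ratios of 0.0216, 0.0123 and 0.01 at 2 months, the last at the floor of the deposited values, and 0.232, 0.255 and 0.150 at 4 months (3.90 ± 0.60, adjusted p = 0.0435). Sh3tc2 had 0.0649, 0.0492 and 0.0632 against 0.169, 0.191 and 0.225 (1.72 ± 0.27, adjusted p = 0.0477). Their differences on log2(signal + 16) were 0.17 and 0.11, where low signals weigh less.

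Genes that ranked next did not pass. They were taken only from genes that were not dim and whose groups did not overlap. Among higher ones, Pltp, the phospholipid transfer protein, had ratios of 0.402, 0.357 and 0.393 at 2 months and 1.17, 1.26 and 1.78 at 4 months (1.84 ± 0.34, adjusted p = 0.0934). Its control difference was 0.13. Mogat1, which makes diacylglycerol, had 1.3 ± 0.22 (adjusted p = 0.0651), Arhgap31 1.09 ± 0.18 (0.0609), the chloride channel Clcn2 1.20 ± 0.21 (0.0815) and the anion exchanger Slc4a2 1.13 ± 0.20 (0.0934). Dusp4, a phosphatase of MAP kinases, had 0.97, Emc9, a subunit of the membrane protein insertase, 0.87, Amy1 (amylase) 0.71 and Eral1, a mitochondrial ribosome assembly factor, 0.70, although other probe sets of Eral1 gave -0.09 to 0.55. Among lower ones, Tac1, the precursor of substance P, had ratios of 1.27, 1.31 and 1.32 at 2 months and 0.697, 0.508 and 0.621 at 4 months. The difference was -1.11 ± 0.20 (adjusted p = 0.0934). Kbtbd13 had -2.45, Dennd3 -1.76, Timm50 -1.08, Dnajc17 -0.99, Hkdc1 -0.93 and Art1 -0.89, with adjusted p-values of 0.187 to 0.202, and further probe sets of Timm50 and Dnajc17 gave 0.41 and 0.04. By signal Kbtbd13 was among the dimmest 40% of genes.

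Whether a change differed between genotypes was tested directly. For Pttg1 the knockout change minus the control change (0.28 ± 0.36) was -4.43 ± 0.50 (adjusted p = 0.0111), the 1 gene of 18193 to pass (0.0055%), while 964 (5.3%) had an unadjusted p under 0.05. The count fell to 0 without knockout retina 1, 2, 3 or 31, or without control retina 9, 14 or 24, and was 2 without control retina 10, 11 or 17. Flt4 had -3.06 ± 0.48 and Emc9 1.34 ± 0.21, both with an adjusted p of 0.144. Next came Azin2, an inhibitor of antizyme (1.23), Arhgap31 (1.14), Trappc9, of a vesicle tethering complex (0.87), and Tsr3, which modifies ribosomal RNA (0.76), and on the lower side Egr1 (-2.27), the homeobox gene Msx1 (-1.88) and Fos (-1.24), none of which passed.

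Gene lists are described by how many members lay apart, that is with all 3 arrays of 4 months on 1 side of all 3 of 2 months. Over all genes 13.9% lay apart higher and 5.08% lower (7.82% and 8.64% after centring), among genes that were not dim 19.5% and 4.03%, and in controls 4.55% and 3.26%, so counts near those shares are no result about a list. Apart from Opn1sw and Pttg1, no list member passed the threshold.

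Cone genes did not move together. Of 15 measured, 3 lay apart higher and 2 lower, or 1 and 2 after centring, with a median of -0.08. In controls 0 lay apart higher and 4 lower, with a median of -0.08. Arr3, the cone arrestin that quenches activated opsin, had ratios of 0.224, 0.392 and 0.213 at 2 months and 0.431, 0.769 and 0.543 at 4 months. The 4 month retinas were the higher ones, opposite to Opn1sw, but the difference of 1.09 ± 0.25 had an adjusted p of 0.192. Further probe sets of Arr3 gave 1.33 and 0.20. Opn1mw, the medium-wavelength opsin, had 0.681, 1.03 and 0.618 against 0.562, 0.950 and 0.691, and the groups overlapped. So did those of the transducin subunit Gnat2 (-0.16), the phosphodiesterase subunits Pde6c (-0.30) and Pde6h (-0.37) and the channel subunit Cngb3 (-0.07). Thrb, the thyroid hormone receptor that directs opsin choice, lay apart lower (-0.63), and the exchanger Slc24a2 (0.32) and Ccdc136 (0.40) higher.

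Opn1sw and Arr3 are shown by their upstream sequence because they are the cone genes furthest apart in opposite directions. The 250 bases before each start (RefSeq, GRCm38.p6) are chr6:29380514-29380763 on the minus strand and chrX:100605247-100605496 on the plus strand. Capitals mark TAATC, the core recognised by photoreceptor homeobox factors such as Crx, on either strand. It was searched after the longer TAATCC had matched neither.
Opn1sw: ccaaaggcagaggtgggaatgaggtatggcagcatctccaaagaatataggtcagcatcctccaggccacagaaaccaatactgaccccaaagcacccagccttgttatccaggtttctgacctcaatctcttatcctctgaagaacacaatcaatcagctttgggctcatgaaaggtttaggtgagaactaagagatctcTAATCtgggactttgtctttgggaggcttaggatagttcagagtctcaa
Arr3: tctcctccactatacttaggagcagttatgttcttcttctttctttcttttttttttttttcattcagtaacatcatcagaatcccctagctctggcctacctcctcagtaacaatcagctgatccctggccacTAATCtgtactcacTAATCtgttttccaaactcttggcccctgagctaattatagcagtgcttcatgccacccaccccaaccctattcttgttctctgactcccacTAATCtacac
The core occurred 1 time in Opn1sw and 3 times in Arr3, and 19.8% of 32851 promoter windows of this length hold it (6.25% hold TAATCC). A match is a description of letters, not a binding site.

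**Figure D2:**
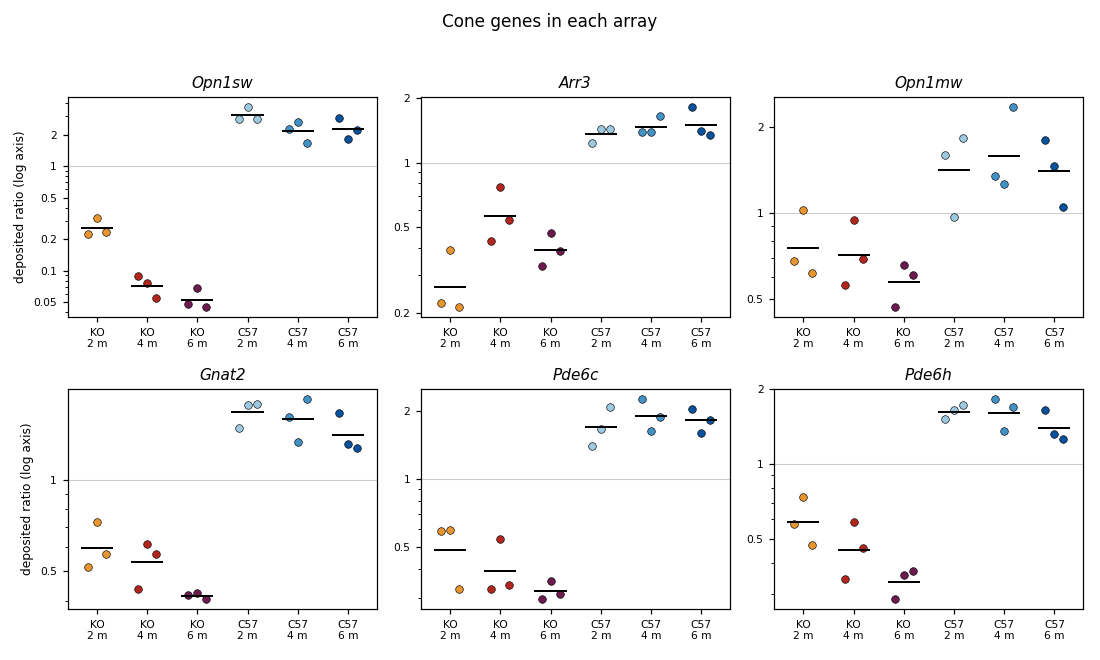
Deposited ratio (log axis) of 6 cone genes in each array, with groups as in the plot of called genes; bars are geometric means of 3 arrays. In the knockout, Opn1sw is lower and Arr3 higher at 4 than at 2 months, and the groups of the other 4 genes overlap.

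Rod genes had 0 members past the threshold, with differences from -0.34 (Pde6a) to 0.18. Of 16, 1 lay apart higher (Cngb1, a channel subunit, 0.18) and 0 lower, with a median of -0.01. After centring 0 lay apart higher and 1 lower, with a median of -0.10. Transducin Gnat1 had ratios of 1.03, 0.993 and 0.846 at 2 months and 0.951, 0.909 and 0.944 at 4 months, the phosphodiesterase subunit Pde6b differed by 0.12 ± 0.11 and the transcription factor Nrl by -0.04 ± 0.13. Of 25 genes shared by rods and cones, 9 lay apart higher and 2 lower, or 4 and 7 after centring, and the 11 that lay apart differed by -0.34 to 0.50. Prph2, the outer segment disc protein peripherin, was the member of largest difference (-2.88 ± 1.58, adjusted p = 0.580). Its ratios were 8.79, 10.8 and 2.18 at 2 months and 3.35, 0.449 and 0.342 at 4 months, so the groups overlapped, and control arrays ran from 0.294 to 21.7. The guanylate cyclase activators Guca1a (0.27) and Guca1b (0.32), the homeobox factor Otx2 (0.39) and the actin bundler Fscn2 (0.50) were among those that lay apart higher, and the matrix protein Impg1 (-0.34) and the chaperone Aipl1 (-0.12) lay apart lower.

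The visual cycle and pigment epithelium list stood highest. Of 13 genes, 11 lay apart higher, before and after centring, and 0 lower. The median difference was 1.69, with 1.22 in controls, but 0 passed. Lrat, which esterifies retinol, had ratios of 0.179, 0.207 and 0.198 at 2 months and 1.90, 1.74 and 2.14 at 4 months. The groups lay far apart, yet the difference of 3.30 ± 1.05 had an adjusted p of 0.327. Control ratios, which enter the same estimate of spread, ran from 0.0416 to 1.62 within 2 months alone. With only the 9 knockout arrays, an alternative added after the data were seen, Lrat passed (adjusted p = 0.00315, against 0.0984 to 0.807 in other alternatives). Rgr, a retinal opsin of the epithelium, had 2.92 ± 1.07, the retinol dehydrogenase Rdh5 2.77 ± 0.89, the retinol-binding protein receptor Stra6 2.35 ± 0.92, the prostaglandin synthase Ptgds 1.73, the lactate carrier Slc16a8 1.69, transthyretin Ttr 1.38 and Rdh10 1.31. Rlbp1, which Müller glia also make, had 0.36. The groups of Best1 and Trpm1 overlapped. In the fit of the 9 knockout arrays Rgr, Rdh5, Ttr, Stra6 and Rdh10 passed too, with adjusted p-values of 0.0115 to 0.0312.

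Melanin genes leaned the same way: 4 of 9 lay apart higher and 0 lower, with a median of 1.17 against 1.86 in controls. Tyrosinase Tyr had 1.57 ± 1.22, Oca2 1.10, the transcription factor Mitf 0.60 and Gpr143, a dim gene, 1.17. The mean level of both lists without Rpe65, used as the covariate, was -2.74 to 0.07 in 2 month controls. With that covariate, 2 genes passed in the knockout, Pttg1 and Flt4.

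**Figure D3:**
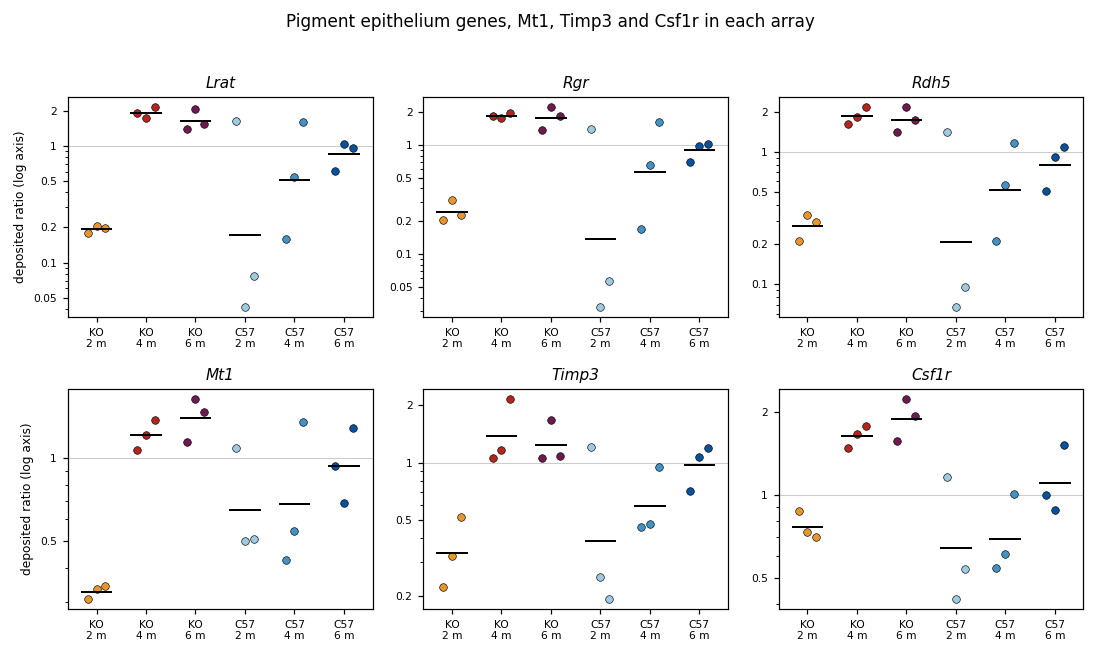
Deposited ratio (log axis) of Lrat, Rgr, Rdh5, Mt1, Timp3 and Csf1r in each array, with groups as in the plot of called genes; bars are geometric means of 3 arrays. All 6 genes lie higher in every 4 month than in every 2 month knockout array, and control arrays of 1 age are spread widely.

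Other genes lay higher at 4 months beside the pigment epithelium level. Of 18 antioxidant genes, 5 lay apart higher and 0 lower, with a median of 0.22, or 4 and 1 with a median of 0.13 after centring. The metallothioneins, small proteins that bind zinc and copper, led them. Mt1 had ratios of 0.308, 0.334 and 0.342 at 2 months and 1.07, 1.21 and 1.38 at 4 months. The groups did not overlap, and the difference was 1.89 ± 0.39 (adjusted p = 0.157, and 0.0126 in the fit of the 9 knockout arrays). Mt2 had 0.389, 0.667 and 0.522 against 0.978, 1.21 and 1.22 (1.14 ± 0.38, adjusted p = 0.353). With the pigment epithelium covariate the differences were 1.17 and 0.59. The control differences were 0.06 and -0.31. Gpx4, which reduces lipid peroxides, had 0.37.

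The windows before Mt1 and Mt2, which neighbour each other, are shown because the pair lay higher together. They are chr8:94178839-94179088 and chr8:94172368-94172617 of GRCm38.p6 (RefSeq), both on the plus strand. Capitals mark TGCGCNC or TGCACNC on either strand, the core of the metal response element.
Mt1: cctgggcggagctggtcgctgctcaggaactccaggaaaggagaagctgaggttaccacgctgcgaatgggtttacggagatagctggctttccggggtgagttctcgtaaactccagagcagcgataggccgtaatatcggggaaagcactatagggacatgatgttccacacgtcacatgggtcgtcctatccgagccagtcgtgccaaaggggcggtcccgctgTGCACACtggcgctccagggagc
Mt2: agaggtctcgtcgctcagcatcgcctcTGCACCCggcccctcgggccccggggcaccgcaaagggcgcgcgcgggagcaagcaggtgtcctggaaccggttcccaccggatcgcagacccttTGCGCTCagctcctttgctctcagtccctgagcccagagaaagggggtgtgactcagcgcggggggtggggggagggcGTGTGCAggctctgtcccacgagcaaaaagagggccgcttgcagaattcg
Within these windows the core occurred 1 time before Mt1 and 3 times before Mt2, and 21.4% of promoter windows hold it. Bases past the annotated starts were not searched, so these are not counts for the whole promoters.

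Timp3, an inhibitor of metalloproteinases and a matrix protein beneath the epithelium, had ratios of 0.222, 0.322 and 0.521 at 2 months and 1.05, 1.16 and 2.15 at 4 months. The groups were apart, with a difference of 2.05 ± 0.59 (adjusted p = 0.282) that was 0.78 with the pigment epithelium covariate. It was 1 of 3 among 20 connective tissue genes to lie apart higher, with Col5a1 (0.92) and Mgp (0.69), and the list's median was 0.09.

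Glial and immune lists had 0 members past the threshold. Of 14 Müller glia genes, 4 lay apart higher and 1 lower (4 and 2 after centring), with a median of 0.08. The carbonic anhydrase Car14 had 0.96 ± 0.24, Sox9 0.69 and Apoe 0.36, but 4 of the 14 differences were negative. After centring, the list's median was -0.02 and Aqp4 was at -0.37. With the pigment epithelium covariate, Car14 had 0.50 and Apoe 0.06. Of 20 gliosis and stress genes, 1 lay apart in each direction: Osmr, the oncostatin M receptor (0.68), and Egr1. Gfap, the intermediate filament of reactive glia, had ratios of 1.04, 1.32 and 0.963 against 0.963, 1.28 and 1.66. Edn2, an endothelin of stressed photoreceptors, had 1.35, 1.75 and 1.14 against 1.31, 2.97 and 2.34, and Fgf2, a survival factor, differed by -0.52 ± 0.66. All 3 overlapped between the ages. Of 15 microglia genes, 2 lay apart higher and 0 lower, a share near the 13.9% of all genes. Differences were positive in 10 and negative in 5, with a median of 0.22, or 0.12 after centring. Cd68 and Ctss were at -0.43 and -0.17 after centring. Csf1r, the receptor that maintains microglia, had 0.873, 0.731 and 0.702 against 1.48, 1.66 and 1.78 (1.09 ± 0.34, adjusted p = 0.321), or 0.44 with the pigment epithelium covariate. The class I antigens H2-K1 (0.74) and H2-D1 (0.50) and their partner B2m (0.54) were the 3 of 11 antigen presentation genes that lay apart higher. Over all genes that share was 13.9%. Of the 11 differences 8 were positive and 3 negative, with a median of 0.24. After centring, the class II genes H2-Aa, H2-Ab1 and H2-Eb1 were at -0.40, -0.62 and -0.75. Of 21 cell death genes, 2 lay apart higher and 0 lower, with a median of 0.08.

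Immediate early genes, which neurons switch on within minutes of stimulation, lay lower. Of 17, 7 lay apart lower and 0 higher (8 and 0 after centring), with medians of -0.19 in the knockout and -0.06 in controls. Egr1 had ratios of 1.54, 1.37 and 1.58 at 2 months and 0.541, 0.312 and 0.346 at 4 months. All 4 month arrays were low, and the difference was -1.95 ± 0.40 (adjusted p = 0.148, and 0.0312 in the fit of the 9 knockout arrays). Fos had 0.963, 0.723 and 1.07 against 0.497, 0.468 and 0.373 (-1.03 ± 0.20, adjusted p = 0.105), again without overlap. The orphan receptors Nr4a1 (-0.73), Nr4a2 (-0.17) and the dim Nr4a3 (-1.53), Jun (-0.33) and the phosphatase Dusp1 (-0.33) were the others.

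Clock genes lay on the other side. Of 17, 6 lay apart higher and 0 lower (4 and 0 after centring), with a median of 0.26 against -0.02 in controls. Ciart, a repressor of the clock, had ratios of 0.675, 0.551 and 0.699 at 2 months and 1.23, 1.14 and 1.03 at 4 months (0.82 ± 0.22, adjusted p = 0.240). Dbp, an output factor, had 0.913, 0.776 and 0.636 against 1.28, 1.24 and 1.18 (0.69 ± 0.16, adjusted p = 0.195). Both were without overlap, as were the period genes Per3 (0.50) and Per2 (0.47), the cryptochrome Cry2 (0.37) and the repressor Nr1d2 (0.26). The labels give no time of day, and its part in these lists was not tested.

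**Figure D4:**
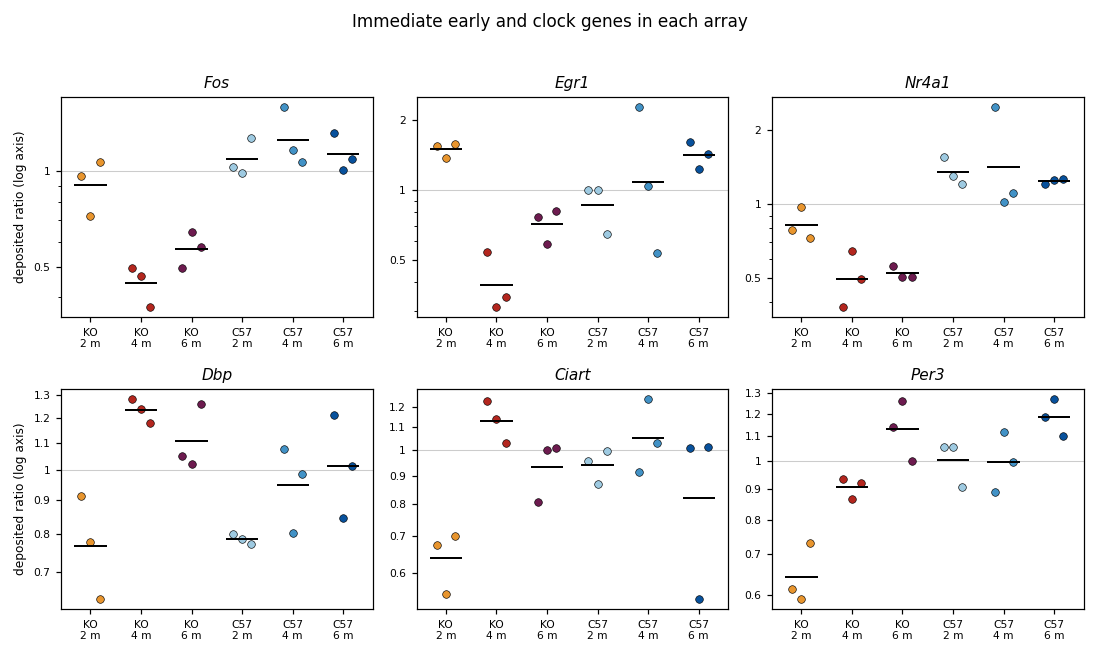
Deposited ratio (log axis) of the immediate early genes Fos, Egr1 and Nr4a1 and the clock genes Dbp, Ciart and Per3 in each array, with groups as in the plot of called genes; bars are geometric means of 3 arrays. In the knockout the first 3 are lower and the last 3 higher at 4 than at 2 months in every array.

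Lists of inner retinal neurons also had 0 members past the threshold. Among all genes that were not dim, 19.5% lay apart higher and 4.03% lower, and counts near those shares are no result about these cells. Of 14 amacrine genes, 5 lay apart higher and 0 lower (2 and 1 after centring), among them the glycine transporter Slc6a9 (0.25) and Pax6 (0.23). Of 12 genes of rod and ON bipolar cells, 3 lay apart higher and 1 lower (2 and 1 after centring). The kinase Prkca was at 0.28 and Nyx, which anchors the postsynaptic channel, at -0.36. Of 13 ganglion cell genes, 3 lay apart higher and 1 lower (2 and 1 after centring). The lower one was melanopsin, Opn4, with 1.54, 1.06 and 1.32 against 0.521, 0.555 and 0.911 (-1.01 ± 0.30, adjusted p = 0.289).

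All 22 lens genes were lower on average at 4 months, with a median of -2.74, and in none did the groups lie apart. Alpha-crystallin Cryaa had ratios of 0.01, 4.50 and 16.8 at 2 months and 0.363, 0.131 and 0.209 at 4 months, so the 2 month retinas lay on both sides. Without retinas 2 and 3 the list's median was 1.21, in a fit that rests on 1 array at 2 months, assumed to vary like the other groups. In that fit 17 genes passed, of which Pttg1 and Flt4 were shared with the 8. With the lens level as a covariate, 2 passed, Pttg1 and Flt4.

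**Figure D5:**
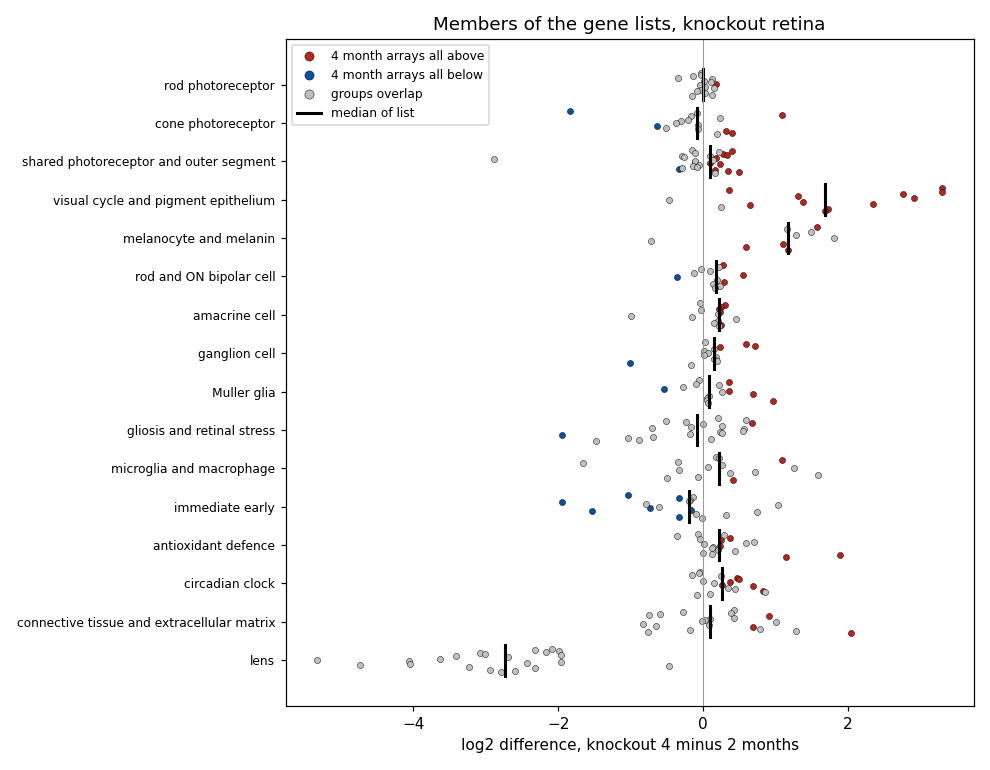
Log2 difference (4 minus 2 months, knockout) of each member of 16 gene lists; black bars are list medians, red and blue points are members whose 4 month arrays all lie above or below those of 2 months, grey points overlap. The pigment epithelium list has its median at 1.69, the lens list at -2.74 with all members overlapping, and rods at -0.01.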

How the data were processed

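RNA of 18 mouse retinas was measured on Affymetrix arrays. Values are ratios on a linear scale as deposited by the authors: 45101 probe sets, each divided by its median over the arrays in 54.3% of probe sets (within 1e-05) or, where dim, by a fixed divisor, with a floor of 0.01. Per the submitters' processing notes RMA was named for 18 samples and GCOS for 16; the values are not on the scale RMA gives, so the summary step is unsettled. Array-scaled signals were read from whole multiples of 1 step per array, leaving out values at the floor.

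Gene names came from the platform annotation; the probe set of highest signal naming 1 gene alone was used (34945 probe sets, 18193 genes). limma 3.58.1 in R 4.3.3 was fitted to log2 ratios of all 18 arrays with 6 group means (12 residual degrees of freedom), and tests were two-sided. The number of arrays limits the precision. The fit was also run on simulated data with independent noise and no lens or pigment epithelium differences between arrays. That run therefore cannot say how the fit behaves with such differences. Sex was read from the Y-linked genes alone.

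Named genes were Rpe65, the largest differences past the threshold in each direction (12, and 4 dim), completed by the smallest unadjusted p among genes without overlap, and 5 each way for the difference between genotypes. Genes past the threshold in the knockout also had to be without overlap, which left out none of the 8. The members and gene lists were chosen with earlier results of these data known. Alternatives covered filters, probe sets, scaling, covariates, array weights and leaving out arrays.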

Additional observations from a re-analysis of the deposited data

Results flagged for a closer look

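Pttg1 changed differently in the genotypes between 2 and 4 months: the knockout change minus the control change was -4.43 on the log2 scale, by a test of the difference itself (limma, adjusted p = 0.0111). Without probe sets open to cross-hybridisation 0 genes passed that test, and the knockout change of Pttg1 was -0.75 there. The count of genes past the threshold was also 0 without knockout retina 1, 2, 3 or 31 or control retina 9, 14 or 24.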

How the results depend on the processing

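All 8 genes past the threshold kept their direction under every alternative fitted for them. Pttg1 passed in 20 of 22 alternatives, Flt4 in 18 of 21, Fbxo44 in 10 of 22, Opn1sw in 8 of 22, Glb1l3 in 6, Cyp27a1 in 5, Vmn1r14 in 4 of 21 and Sh3tc2 in 1 of 21. Flt4, Vmn1r14 and Sh3tc2 were among the dimmest 40% of genes by signal and so were absent from the fit without those. The knockout count of 8 became 1 with only the 6 arrays compared (0 of the 8 shared), 3 with the 12 arrays of 2 and 4 months, 29 without the dimmest 40% of genes, 1 with the mean of probe sets, 5 with centred arrays, 2 with quantile normalization, 37 with log2(signal + 16), 2 with a lens covariate, 17 without both 2 month knockouts of high lens level, 2 with a pigment epithelium covariate, 24 with array weights and 49 with only the 9 knockout arrays. Leaving out 1 array gave 2 to 3. The control count of 0 became 1 with the 12 arrays, 2 without the dimmest genes, 3 with quantile normalization, 3 with log2(signal + 16), 1 without the high lens knockouts, 1 with sex as a covariate, 3 with the pigment epithelium covariate on log2(signal + 16), and 0 to 6 when 1 array was left out. The count of 1 for the difference between genotypes became 0 with the 12 arrays, 2 without the dimmest genes, 0 without probe sets open to cross-hybridisation, 2 with a trended and robust prior, 2 without the high lens knockouts, 3 with the pigment epithelium covariate on log2(signal + 16), and 0 to 2 when 1 array was left out. Reversed were Rpe65 (-1.46 with the pigment epithelium covariate on log2(signal + 16)) and, without probe sets open to cross-hybridisation, Kbtbd13 (0.037) and the difference of changes of Msx1 (1.02). The cause was not tested. The covariate on log2(signal + 16) and the fit of 9 knockout arrays were chosen after seeing the data. Signal over background limits dim genes. No paired analysis was possible because the groups compared share no retina numbers.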
